A study of Mus musculus with 6 samples.

Results

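Ifi202b and 5 related genes, Ifi203, Ifi204, Ifi205, Ifi207 and Aim2, were followed as one gene family in embryonic mouse handpads, which are the forelimb paddles in which the digits form. These 6 genes were taken by name from the 34989 genes with summed counts, and all 6 were found in every library. The family was chosen by the fold change of Ifi202b between the genotypes compared here, so its values are given as a description and no test is read from them. The samples were 3 wild-type (WT) and 3 Grhl3 knockout (KO) handpads, all labelled C57BL/6 and taken at embryonic stage E14.5. Grhl3 is a transcription factor of surface epithelium, and the series deals with how the epithelium and its outer layer, the periderm, act while the digits separate. The labels give no further allele, no Cre driver and no origin of the knockout line. They also do not say whether a replicate is 1 embryo or a pool, so p-values here measure sample-to-sample spread only, part of which may be technical.

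The Ifi200 genes, also called the PYHIN family, are switched on by interferons in many cell types. A typical member joins a pyrin domain, which binds other proteins, to a HIN domain, which binds DNA. AIM2 senses DNA in the cytoplasm and assembles an inflammasome with the adaptor ASC (gene Pycard) and caspase-1. The product of Ifi202b, p202, has HIN domains but no pyrin domain, and is known as an inhibitor of AIM2. The family lies in 1 cluster on chromosome 1, and mice carry many more copies than humans. Ifi202b is also known for a level that differs widely between inbred mouse strains, being low in C57BL/6 and high in the autoimmune-prone NZB strain.

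The promoter stretches are shown first. In the windows searched, most relatives of Ifi202b held a motif that the Ifi202b window did not. The RefSeq promoter windows (build GRCm38.p6, 250 bases before to 50 bases after each gene's start, 300 in all) were searched on both strands for GAAA followed by any 2 bases and another GAAA, the core of the interferon-stimulated response element. This core was present in 9 of the 12 family genes with a window, and in 3 of 5 members with one, Ifi203, Ifi205 and Ifi207. Across all 32851 windows, 1131 held it (3.44%). It was not found in the windows of Ifi202b, Aim2 or Ifi209, and Ifi204 has no entry. The Ifi202b window is set on a RefSeq start 100 bases upstream of the start in the GENCODE annotation used for the counts. It ends before the GENCODE start, so the bases directly upstream of that start were not searched. Absence of the core from Ifi202b therefore holds for this window only. In the stretches that follow, written 5′ to 3′ on the gene's strand, the capitals mark the core.
Ifi203 (chr1:173942503-173942542, minus strand): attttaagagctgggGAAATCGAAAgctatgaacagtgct
Mndal (chr1:173880199-173880238, minus strand): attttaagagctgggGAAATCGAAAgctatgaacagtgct
Ifi205 (chr1:174031865-174031904, minus strand): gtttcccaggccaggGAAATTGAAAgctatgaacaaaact
Ifi211 (chr1:173913059-173913098, minus strand): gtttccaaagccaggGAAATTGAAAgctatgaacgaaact
Ifi207 (chr1:173741826-173741865, minus strand): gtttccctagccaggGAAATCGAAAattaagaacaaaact
Ifi208 (chr1:173673592-173673631, plus strand): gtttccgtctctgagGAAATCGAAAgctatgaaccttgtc
The Ifi203 and Mndal stretches were identical over all 40 bases. Ifi205, Ifi207, Ifi208 and Ifi211 matched the Ifi203 stretch at 28, 27, 28 and 29 of 40 bases. RefSeq has 2 windows for Ifi203, and the one at chr1:173942623-173942922 did not hold the core. The core began 35 bases before the start of the other Ifi203 window, 41 before the start of Ifi207 and 134 before that of Ifi205.

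The same windows were searched for the grainyhead site, the DNA word bound by GRHL proteins, as the palindrome AACCGGTT and as the shorter AACCGGT, which every AACCGGTT contains. AACCGGTT was in 48 of the 32851 windows (0.146%) and in no family window. AACCGGT was in 334 windows (1.02%), and of the 12 family genes only the Ifi202b window held it. It lay 18 bases after the RefSeq start, which places it upstream of the start that GENCODE gives, and is in capitals here.
Ifi202b site (chr1:173982809-173982837, minus strand): gaagagtatttAACCGGTgtcattttctt
Ifi202b promoter (chr1:173982845-173983094, minus strand): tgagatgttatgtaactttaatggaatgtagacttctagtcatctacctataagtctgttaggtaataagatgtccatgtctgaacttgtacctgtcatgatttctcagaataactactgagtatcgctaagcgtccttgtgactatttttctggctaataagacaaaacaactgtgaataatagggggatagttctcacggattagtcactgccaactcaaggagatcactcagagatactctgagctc
The second stretch is the 250 bases before the RefSeq start. That start lies 100 bases upstream of the start in the GENCODE annotation used for the counts. A match in letters is a description of the reference sequence, and whether GRHL3 binds there was not measured.

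The libraries held 38052692 to 56037639 estimated counts. Levels are given as CPM, each gene's count scaled to a library total of 1000000 after TMM adjustment. Grhl3, the targeted gene, stood at 14.3, 45.7 and 18.5 CPM in WT and at 3.11, 2.86 and 2.95 CPM in KO, which fits the labels. The log2 difference came to -3.14 (SE 0.41, adjusted p = 0.0221, edgeR quasi-likelihood test with Benjamini-Hochberg adjustment). WT replicate 1 stood apart, with 8.94% of its counts in ribosomal protein genes against 5.64% to 7.78% in the other libraries. Over 4 Y-linked genes WT replicate 1 held 211 counts, close to the 169 to 247 in KO, whereas WT replicates 2 and 3 held 14109 and 12909. High Y-linked levels, a mark of male tissue, thus occurred only in WT. Sex is therefore partly confounded with genotype, and differences between the genotypes may include it. The part of the Y-linked difference in the results was read only through a fit with Y-linked expression as a term. Fold changes are KO minus WT on the log2 scale, and a gene was called at an adjusted p under 0.05 over 16938 genes tested.

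Ifi202b (ENSMUSG00000026535.9) occupies chr1:173962568-173982744 on the minus strand of mm10, with 1 annotated transcript of 1697 bases. Its estimated counts were 92, 88 and 85 in WT and 1211, 677 and 901 in KO. On the CPM scale these were 2.43, 1.77 and 2.15 in WT and 24.6, 14.3 and 16.4 in KO. The groups did not overlap, and the lowest KO library lay far above the highest WT library. The WT mean was 2.12 ± 0.334 CPM (SD, n = 3) and the KO mean 18.4 ± 5.45 CPM (SD, n = 3). The fitted log2 fold change was 3.12 (SE 0.24), which is 8.72-fold. Over 16 alternative settings it ran from 2.86, in a fit with Y-linked expression as a term, to 3.28, without KO replicate 2. By size of the fold change Ifi202b ranked 21 among the 59 genes called higher. The gene was chosen by this same fold change, so its place there is a description only. The authors' deposited table gives a log2 fold change of 3.12 and an average log2 CPM of 3.36 for Ifi202b, and it is the only family gene among the 941 genes listed there. In bulk tissue, more cells that express a gene and more RNA per cell cannot be told apart.

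**Figure D1:**
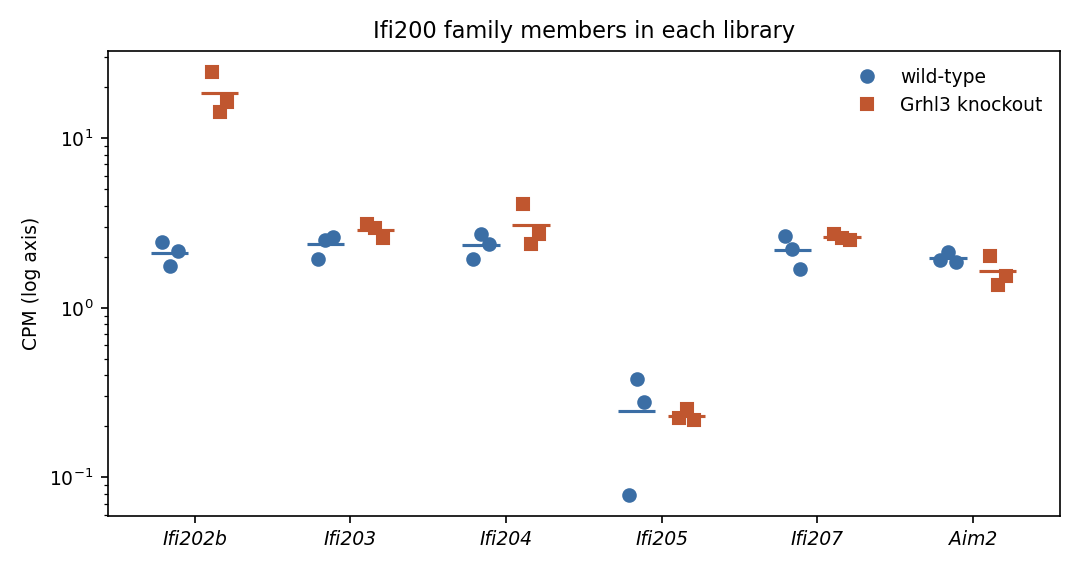
CPM (log axis) of the 6 members in each library, with WT as blue circles, KO as orange squares and the group mean as a bar. Only for Ifi202b do all KO points (14.3 to 24.6) lie above all WT points (1.77 to 2.43), and the other 5 members overlap between the groups.

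The other members with a pyrin and a HIN domain differed little between the genotypes. Ifi203 (chr1:173920407-173942672) stood at 1.95, 2.51 and 2.63 CPM in WT and 3.11, 2.95 and 2.57 CPM in KO. Its log2 fold change was 0.28 (SE 0.20). It was -0.10 with offsets for effective transcript length and 0.57 with the Y-linked term, so its sign was not settled by these libraries. Ifi204 (chr1:173747293-173766943) encodes p204, a nuclear and cytoplasmic DNA sensor also known from muscle and bone cell differentiation. It stood at 1.95, 2.73 and 2.38 CPM in WT and 4.10, 2.38 and 2.73 CPM in KO, with a log2 fold change of 0.38 (SE 0.26). Only KO replicate 1 stood clearly above the WT range, and without it the difference was 0.12. Of the 2 Ifi204 transcripts, the protein-coding one had 0.52 and the retained-intron one -0.62 in the fit by transcript.

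Ifi207 (chr1:173723427-173741747) stood at 2.64, 2.23 and 1.70 CPM in WT and 2.72, 2.59 and 2.51 CPM in KO, a log2 fold change of 0.25 (SE 0.22). It was -0.06 with the Y-linked term. Ifi205 (chr1:174011998-174031810), the nearest family gene on the right side of Ifi202b at a distance of 29254 bases, was barely detected. It had 3, 19 and 11 counts in WT and 11, 12 and 12 in KO, and its log2 fold change of -0.13 (SE 0.52) ran from -0.52 to 1.62 over 15 alternatives. At this depth no difference in Ifi205 could be resolved.

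Aim2 (chr1:173350879-173466040, plus strand) encodes the DNA sensor that p202 inhibits. It stood at 1.90, 2.13 and 1.85 CPM in WT and 2.01, 1.37 and 1.53 CPM in KO. Its log2 fold change was -0.26 (SE 0.23), and it was negative in the main fit and in all 16 alternatives, from -0.43 to -0.15. The groups overlapped because KO replicate 1 lay within the WT range. Of its 7 transcripts 2 had counts, and the longer of these took 40.2%, 78.8% and 74.1% of the gene's counts in WT and 80.1%, 38.8% and 79.5% in KO. The low share thus occurred in 1 library of each genotype.

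Of all genes tested, 0.431% were called in either direction, 0.348% higher and 0.0827% lower. Of the 5 members other than Ifi202b, 0 were called by edgeR's quasi-likelihood test, and 0 had an unadjusted p under 0.05, which 7.22% of all genes had. DESeq2, edgeR's likelihood ratio test and limma-voom each also called 0 of these 5. The members were chosen with this contrast in view, so the count is a description.

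The remaining PYHIN genes of the cluster were read the same way. Of 11 further symbols listed, 7 were in the annotation (Mndal, Ifi206, Ifi208, Ifi209, Ifi211, Ifi213 and Ifi214) and 6 had enough counts to be tested. Of these, 0 were called by edgeR's quasi-likelihood test, 0 had an unadjusted p under 0.05, and DESeq2, the likelihood ratio test and limma-voom each called 0. The log2 fold changes were 0.31 (SE 0.29) for Mndal, 0.21 (SE 0.36) for Ifi208, 0.86 (SE 0.51) for Ifi209 and 0.60 (SE 0.50) for Ifi211. They were -0.22 (SE 0.29) for Ifi213 and -0.46 (SE 0.41) for Ifi214. Ifi206 had 1, 7 and 0 counts in WT and 11, 6 and 0 in KO and was not tested. Of the 12 family genes tested, every KO library lay above every WT library in 1 (8.33%), Ifi202b, against 6.77% of all genes tested, and the groups of the other 11 overlapped. The family genes nearest to Ifi202b, Ifi203 at 19896 bases, Mndal at 20077 bases and Ifi205 at 29254 bases, had log2 fold changes of 0.28, 0.31 and -0.13.

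**Figure D2:**
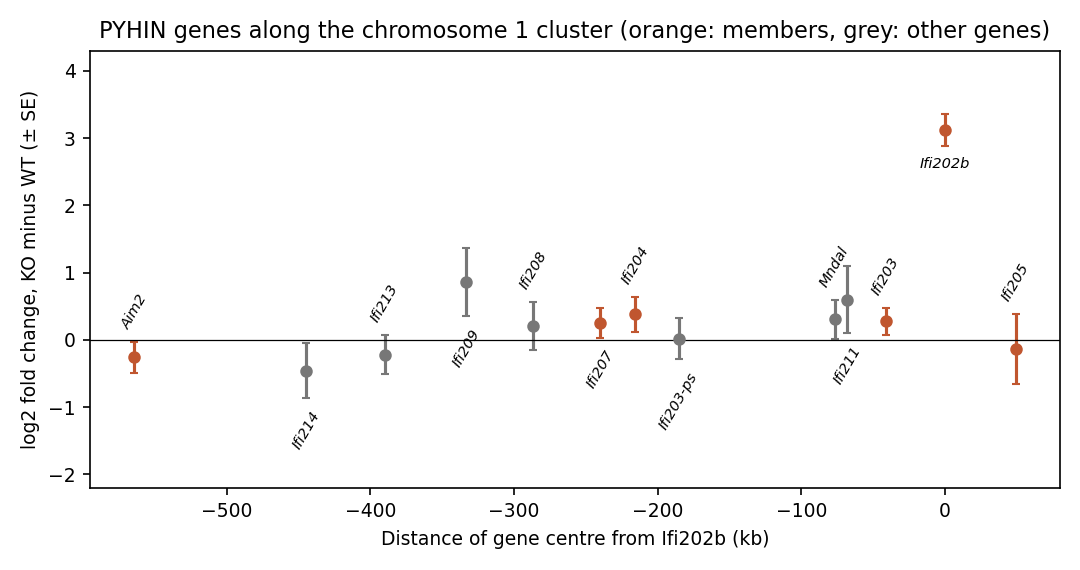
Log2 fold change (KO minus WT, ± SE) of each tested PYHIN gene and of the pseudogene Ifi203-ps (0.02, chosen after its values were seen) against the distance of the gene's centre from that of Ifi202b in kb. Ifi202b stands at 3.12, and the other genes lie between -0.46 and 0.86.

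Levels of different genes were compared per length, in TPM, which divides each count by transcript length before scaling the library to 1000000. In WT the order by mean was Ifi202b at 1.73 ± 0.164 TPM, Ifi204 at 1.42 ± 0.413, Ifi203 at 1.29 ± 0.655, Aim2 at 0.982 ± 0.106, Ifi207 at 0.755 ± 0.112 and Ifi205 at 0.217 ± 0.148 (SD, n = 3). The ranges of neighbours overlapped from Ifi202b down to Aim2, and that of Ifi203 also overlapped that of Ifi207. The order of neighbours among these genes is therefore not firm. Ifi202b lay above Aim2, and Aim2 above Ifi207, in every WT library. In KO the order was Ifi202b at 14.4 ± 4.67 TPM, Ifi204 at 1.68 ± 0.515, Ifi203 at 1.10 ± 0.207, Ifi207 at 0.869 ± 0.0631, Aim2 at 0.777 ± 0.140 and Ifi205 at 0.191 ± 0.0188 (SD, n = 3). Ifi202b was rank 1 of 6 in every KO library and rank 1, 2 and 2 in WT, and Ifi205 was rank 6 in all 6 libraries. Ranges of Ifi203, Ifi207 and Aim2 overlapped in KO from one to the next.

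Because related genes share sequence, the 6 members were also summed. The sum was 11, 11.7 and 11 CPM in WT and 36.7, 23.8 and 25.9 CPM in KO, a log2 fold change of 1.36 (SE 0.17). Ifi202b made up 22.2%, 15% and 19.6% of the members' counts in WT and 66.9%, 59.9% and 63.2% in KO. Without Ifi202b the sum was 8.53, 9.97 and 8.83 CPM in WT and 12.2, 9.54 and 9.55 CPM in KO, a log2 fold change of 0.19 (SE 0.15). That sum was formed after the data were seen. The higher total of the family was therefore mostly Ifi202b.

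How far reads could be divided among relatives was measured on the GENCODE transcripts by cutting the leading transcript of each gene into words of 31 bases, the default word length of kallisto. The setting the authors used is not given in the sources used here. Of the 1667 words of Ifi202b, 20 (1.20%) occurred in another gene, 19 of them in Gm18445. The share was 6.59% for Aim2, 14.6% for Ifi207, 19.6% for Ifi203, 46.0% for Ifi204 and 56.5% for Ifi205, whose largest overlap was with Ifi211 (54.1%). The estimated counts of Ifi202b were deposited as whole numbers, with no decimals, in all 6 libraries. Ifi204 and Ifi205 share far more words, and their levels are less certain. In position, only Ifi203 shared exon bases with another gene, 37 of 6706 (0.552%) with Mndal on the same strand.

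**Figure D3:**
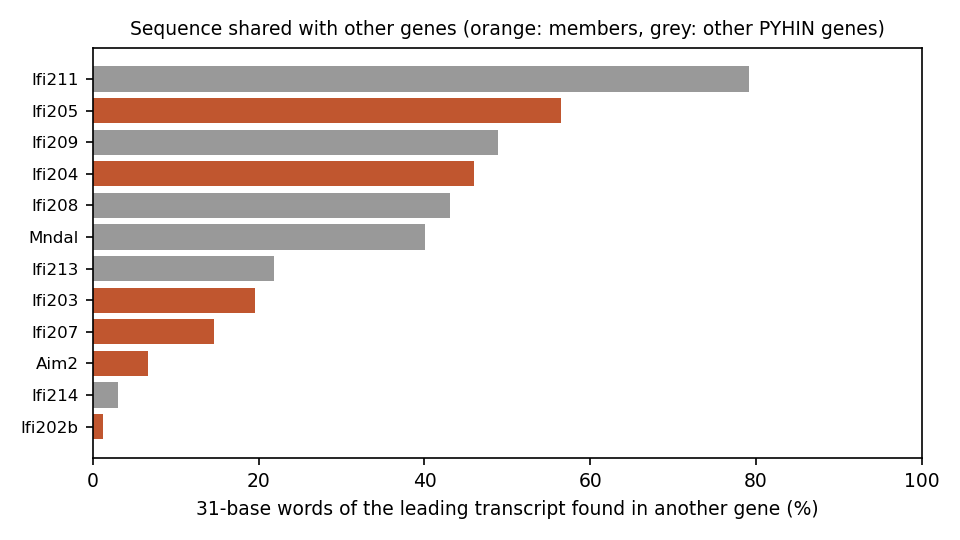
Share (%) of the 31-base words of each gene's leading transcript that occur in a transcript of another gene, members in orange and other PYHIN genes in grey. Ifi202b has the smallest share, 1.20%, and Ifi211 the largest, 79.2%.

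Of the 8 genes whose log2 CPM followed Ifi202b most closely over the 6 libraries, 4 are genes of epithelia (Krt8, Krt75, Krt18 and Klk7). Pearson's r was 0.9982 for Krt8, 0.9967 for Tatdn2, 0.9921 for Spib, 0.9910 for Krt75, 0.9894 for Krt18, 0.9892 for Klk7, 0.9887 for Sesn2 and 0.9880 for Nudt18. The 6 points fall into the 2 genotypes, and 291 tested genes had r above 0.9, so r describes mostly a shared difference between groups. Krt8 and Krt18 form the keratin pair of simple epithelia and periderm. Krt8 stood at 8.0, 6.96 and 8.70 CPM in WT and 82.0, 48.3 and 57.8 CPM in KO, with a log2 fold change of 2.99. As for Ifi202b, KO replicate 1 was the highest and KO replicate 2 the lowest of the KO libraries. Krt75, a hair follicle keratin, had 3.44, Krt18 had 1.88, and Klk7, a protease of the cornified layer, had 6.27 on the log2 scale. Spib, an ETS-family transcription factor, stood at 1.43, 1.48 and 1.37 CPM in WT and 4.20, 3.26 and 3.68 CPM in KO. It rose by 1.38 (SE 0.20, adjusted p = 0.0309, edgeR quasi-likelihood test with Benjamini-Hochberg adjustment). These 8 genes were picked by likeness to Ifi202b in the same libraries, so their fold changes and p-values are a description only.

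Size and likeness were separate properties. Tatdn2, a putative nuclease and the closest after Krt8, had a log2 fold change of 0.10, from 46.1 to 46.3 CPM in WT and 49.2 to 49.7 CPM in KO. Sesn2, a stress-induced regulator of growth, had 0.55 (adjusted p = 0.0789), and Nudt18, a nucleotide hydrolase, 0.44 (adjusted p = 0.283), and neither was called by edgeR's quasi-likelihood test with Benjamini-Hochberg adjustment. None of the family genes came near these values. Pearson's r with Ifi202b was 0.66 for Ifi203, 0.61 for Ifi204, 0.61 for Ifi207, 0.01 for Ifi205 and -0.52 for Aim2.

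The summed level of epithelial markers was higher in every KO library than in every WT library, narrowly between KO replicate 2 and WT replicate 2. Within WT, the library with the highest sum had the lowest Ifi202b CPM. With 92, 88 and 85 counts of Ifi202b in WT, the order of these libraries is not firm. The summed level of 20 pan-epithelial genes was 2069, 3532 and 2217 CPM in WT and 4996, 3595 and 4725 CPM in KO, a ratio of means of 1.70. Of these 20 genes, 17 had a positive and 3 a negative log2 fold change. In this list 1 was called higher and 0 lower, against 0.348% and 0.0827% of all genes tested. Every KO library lay above every WT library in 8 of the 20, against 6.77% of all genes tested. Per 1000 summed pan-epithelial CPM, Ifi202b stood at 1.17, 0.50 and 0.970 CPM in WT and 4.92, 3.97 and 3.47 CPM in KO, a ratio of means of 4.67. WT replicate 2 and KO replicate 2 had nearly equal epithelial sums, 3532 and 3595 CPM, and 1.77 and 14.3 CPM of Ifi202b, in 1 library of each genotype. The periderm list of 17 genes had a ratio of 1.96, from 702 to 1010 CPM in WT and 1200 to 1986 CPM in KO. It had 7 genes called higher and 1 lower, the latter being Grhl3, against the same shares of all genes tested. Not all of its genes went the same way, with 11 positive and 6 negative log2 fold changes. Every KO library lay above every WT library in 9 (52.9%) and below in 2 (11.8%), against 6.77% and 6.16% of all genes tested. In which cells Ifi202b was transcribed was not measured, and whether the amount of epithelium took part in its level was not tested.

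**Figure D4:**
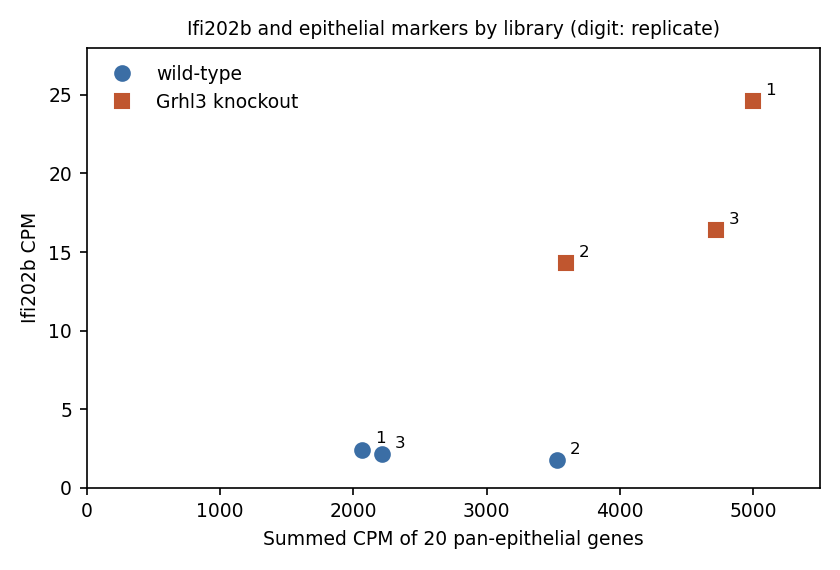
Ifi202b CPM against the summed CPM of the 20 pan-epithelial genes, 1 point per library, WT as blue circles and KO as orange squares, with the replicate as a digit. WT replicate 2 and KO replicate 2 share nearly the same epithelial sum (3532 and 3595) and lie at 1.77 and 14.3 CPM of Ifi202b.

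The family is best known from blood cells, so their markers were read beside it. The summed level of 13 macrophage genes was 163 to 201 CPM in WT and 172 to 245 CPM in KO, a ratio of means of 1.08 with overlapping groups and 0 genes called. The 11 lymphocyte genes summed to 5.0 to 5.57 CPM in WT and 4.32 to 4.55 CPM in KO, a ratio of 0.827. The 8 mast cell and granulocyte genes summed to 86.9 to 93.3 CPM in WT and 82.2 to 144 CPM in KO, a ratio of 1.33 with overlapping groups. Of the 7 of these that were tested, 7 had a positive log2 fold change, with a median of 1.17, and 0 were called by edgeR's quasi-likelihood test. An unadjusted p under 0.05 was reached by 3 of the 7, against 7.22% of all genes tested. They were S100a8, a neutrophil protein (1.89), Kit, the stem cell factor receptor (0.30), and Mcpt4, a mast cell protease (1.24). Every KO library lay above every WT library in 2 of the 7 (28.6%, against 6.77% of all genes tested). The 8 erythroid genes found summed to 5152 to 8285 CPM in WT and 6126 to 10728 CPM in KO, a ratio of 1.21 with overlapping groups, 8 of 8 positive and a median of 0.29. Whether these cells took part in the level of Ifi202b was not tested. The 8 endothelial genes summed to 366 to 389 CPM in WT and 424 to 459 CPM in KO, a ratio of 1.16 without overlap. Of these, 8 of 8 were positive with a median of 0.20, and 0 were called by edgeR's quasi-likelihood test. An unadjusted p under 0.05 was reached by 2 of the 8, against 7.22% of all genes tested. Every KO library lay above every WT library in 3 (37.5%, against 6.77% of all genes tested). None of the markers found in these 5 lists was at 0 in all libraries, and Ifi202b had a ratio of means of 8.70.

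Interferon-stimulated genes leaned toward higher values in KO, but none passed the test. Of 56 genes tested, 45 had a positive and 11 a negative log2 fold change, with a median of 0.28 against -0.004 over all genes tested. Every KO library lay above every WT library in 24 of the 56 (42.9%, against 6.77% of all genes tested), and below in 0. By edgeR's quasi-likelihood test 0 were called, with 16 higher and 0 lower at an unadjusted p under 0.05, where 3.81% of all genes were higher. DESeq2 called 2 (Gbp2 and Ifitm3), the likelihood ratio test 1 (Gbp2) and limma-voom 0. Gbp2, a guanylate-binding protein, stood at 1.22, 1.20 and 0.886 CPM in WT and 8.59, 5.08 and 2.75 CPM in KO, a log2 difference of 2.31 (SE 0.40, adjusted p = 0.0705). Ifitm3, which blocks virus entry, stood at 20.6, 12.5 and 14.8 CPM in WT and 25.0, 24.2 and 29.1 CPM in KO (0.71, SE 0.18, adjusted p = 0.269). Parp9, an ADP-ribosyltransferase family protein, stood at 8.08, 7.42 and 8.07 CPM in WT and 10.7, 12.3 and 10.3 CPM in KO (0.49, SE 0.13, adjusted p = 0.287). These adjusted p-values are from edgeR's quasi-likelihood test with Benjamini-Hochberg adjustment. Without WT replicate 1 the count called was 1 (Ifitm3), and without KO replicate 3 it was 1 (Gbp2). The epithelial sums given before moved in the same direction, and their part in this list was not tested.

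The interferon pathway upstream of these genes was read from 26 receptors, JAK-STAT genes and interferons, 20 of which were tested. Of these 0 were called by edgeR's quasi-likelihood test, DESeq2, the likelihood ratio test or limma-voom, and the median was 0.10. An unadjusted p under 0.05 was reached by 2 with higher and 0 with lower values, against 7.22% of all genes in either direction. Every KO library lay above every WT library in 5 (25.0%, against 6.77% of all genes tested). Irf7, which is itself induced by interferon, stood at 1.64, 2.05 and 0.987 CPM in WT and 2.33, 3.14 and 2.17 CPM in KO, with a log2 fold change of 0.70 (SE 0.30). Stat3, a signal carrier of many cytokines, had 0.21. Irf7 is also in the interferon-stimulated list. Among the interferons themselves, Ifnb1, Ifne, Ifnl2 and Ifnl3 were at 0 in all 6 libraries, which allows up to 3 counts in a library by counting error alone. Ifng had 1, 0 and 1 counts in WT and 0 in KO, and Ifnk had 1 count in WT replicate 2 alone.

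**Figure D5:**
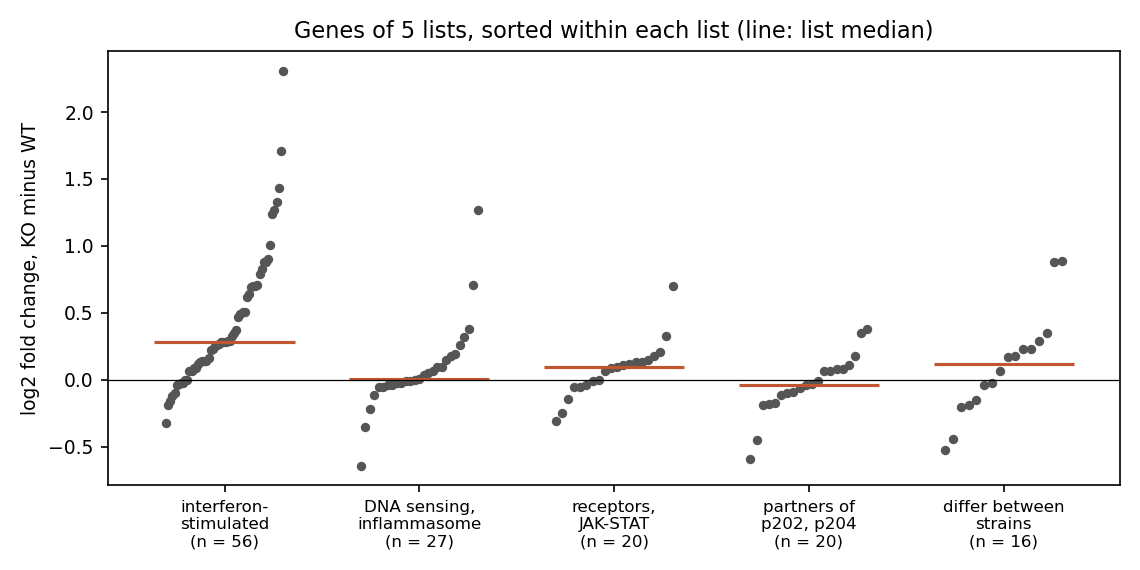
Log2 fold change (KO minus WT) of each tested gene in 5 lists, sorted within the list, with the list median as an orange line. The interferon-stimulated genes have a median of 0.28, and the medians of the other lists lie between -0.04 and 0.12.

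The partners of AIM2 and other DNA sensors had a median close to that of all genes. Of 31 genes of DNA sensing and the inflammasome, 27 were tested and 0 were called by edgeR's quasi-likelihood test, DESeq2, the likelihood ratio test or limma-voom. The median was 0.01, and 3 genes with higher and 1 with a lower value in KO had an unadjusted p under 0.05. Of all genes tested, 7.22% had one in either direction. Every KO library lay above every WT library in 5 (18.5%) and below in 2 (7.41%), against 6.77% and 6.16% of all genes tested. Pycard, the adaptor of AIM2, stood at 18.0, 20.4 and 20.5 CPM in WT and 16.3, 13.5 and 16.3 CPM in KO, a log2 fold change of -0.35 (SE 0.12) that was not called. Dnase2a, which digests DNA in lysosomes, had 0.38 (SE 0.11), and Lrrfip1, a nucleic acid binding protein, had 0.32 (SE 0.11).

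Proteins reported to bind p202 or p204 or to be regulated by them, among them p53, RB, NF-κB and AP-1 subunits, gave 20 tested genes. Of these 0 were called by edgeR's quasi-likelihood test, DESeq2, the likelihood ratio test or limma-voom, and the median was -0.04. An unadjusted p under 0.05 was reached by 2 with higher and 1 with a lower value, against 7.22% of all genes in either direction. Jun, an AP-1 subunit, had a log2 fold change of 0.35, Myc, a growth regulator, 0.38, and Runx2, the bone regulator known to work with p204, -0.59. Jun was called only without WT replicate 1.

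Since the level of Ifi202b is known to differ between strains, genes of that kind and genes near both loci were read. The labels give the same strain for both groups, and genotypes were not read from these files. Of 16 tested genes known to differ between inbred strains, 1 was called higher (6.25%, against 0.348% of all genes tested) and 0 lower, with a median of 0.12. The called gene was Alad, an enzyme of haem synthesis whose copy number differs between strains. It stood at 40.4, 33.7 and 31 CPM in WT and 60.2, 69.0 and 65.7 CPM in KO, and rose by 0.89 (SE 0.12, adjusted p = 0.0221, edgeR quasi-likelihood test with Benjamini-Hochberg adjustment). Without WT replicate 2, WT replicate 3 or any 1 KO replicate, 0 genes of the list were called. With the Y-linked term Alad was not called and Entpd4, a nucleotide-cleaving enzyme, was. Without WT replicate 1, Glo1, which detoxifies methylglyoxal, was called lower beside Alad. Nnt, the mitochondrial enzyme that is truncated in C57BL/6J, stood at 40.2, 49.1 and 30.7 CPM in WT and 37.5, 22.9 and 27.9 CPM in KO, with overlapping groups (chosen after its values were seen).

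None of the genes around the Ifi200 cluster was called by edgeR's quasi-likelihood test, against 0.431% of all genes tested. Within 5 Mb on each side of the cluster (chr1:173350879-174031810), 96 genes outside the family were tested, and their median was 0.01. The 0 calls came with 5 higher and 1 lower at an unadjusted p under 0.05, which 7.22% of all genes had in either direction. At a share of 0.431%, 0 calls among 96 genes do not set this flank apart from the other genes. DESeq2 called 2, the likelihood ratio test 0 and limma-voom 0. Over all 16938 genes tested, DESeq2 called 212 higher and 87 lower. Every KO library lay above every WT library in 7 of the 96 (7.29%) and below in 3 (3.12%). Of all genes tested, the shares were 6.77% and 6.16%. The genes with the smallest p-values included Slamf9, an immune cell receptor of the SLAM family, with 1.18 (SE 0.30), and F11r, a tight junction protein, with 0.47 (SE 0.12). Cadm3, whose span runs into the left end of the cluster, had 0.17 (SE 0.21). The nearest gene tested beyond the right end, Olfr420, had -0.39 (SE 0.38).

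Around Grhl3 itself on chromosome 4, 156 genes within 5 Mb were tested. Of these 1 was called higher (0.641%, against 0.348% of all genes tested) and 0 lower. This was Htr1d, a serotonin receptor, at 0.185, 0.261 and 0.278 CPM in WT and 2.40, 1.03 and 1.44 CPM in KO. It rose by 2.73 (SE 0.40, adjusted p = 0.0335, edgeR quasi-likelihood test with Benjamini-Hochberg adjustment). Every KO library lay above every WT library in 27 (17.3%) and below in 14 (8.97%), against 6.77% and 6.16% of all genes tested. Sesn2, one of the genes most like Ifi202b, lies in this stretch at chr4:132492032-132510501. DESeq2 and the likelihood ratio test each called 10 genes there, limma-voom 0, and leaving out 1 library gave 0 to 4. Over all 16938 genes tested, DESeq2 called 212 higher and 87 lower, and the likelihood ratio test 185 and 75. Whether strain background or DNA carried along with the knockout allele took part in the level of Ifi202b was not tested.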

How the data were processed

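Polyadenylated RNA of 3 WT and 3 KO handpads was sequenced with a stranded Illumina kit, per the labels' protocols. The submitters' processing notes name FastQC, kallisto and the build mm10. Which kallisto version and transcripts were used is not given in the sources used here. Each deposited table gives, per the file headers, an estimated count and a TPM value for 111462 transcripts. The estimated counts deposited by the authors are not normalized. The authors' deposited comparison, made with edgeR by its name, lists per gene the FDR, p-value, likelihood ratio score, average log2 CPM and log2 fold change, per the file headers.

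Transcripts were matched to GENCODE M21 by unversioned identifier (110203 matched), and estimated counts and TPM were summed per gene. The rounded counts were fitted with edgeR 4.0.16 in R 4.3.3 (TMM, filterByExpr with minimum count 10 and total 15, glmQLFit and glmQLFTest, genotype only), with Benjamini-Hochberg adjustment over 16938 genes. CPM used TMM-scaled library sizes. The script was tested on simulated data. Likeness was Pearson's r of log2 CPM with a prior count of 2. Sequences and windows are RefSeq's (GRCm38.p6), read with Python 3.11.15. Promoters of 12 family genes matched by symbol. The labels name no molecular identifiers, so reads may not be independent molecules and count limits cover counting error only.

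The members and lists were chosen with earlier results of these data known, and named genes follow a written rule. It takes the members, the other PYHIN genes, Grhl3, the genes called in each list or else up to 3 with the smallest p, neighbours of the cluster, and the 8 genes of mean log2 CPM of at least 1 most like Ifi202b, with model names left out. Under this rule 2 genes are not reported here. Alternatives were RLE and upper-quartile scaling, no filter, a minimum count of 50, the replicate number as a block, DESeq2 1.42.0, the likelihood ratio test, limma-voom (limma 3.58.1), a Y-linked term, effective-length offsets, each library left out, tests by transcript, sums of deposited TPM, and flanks of 2 and 10 Mb.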

Additional observations from a re-analysis of the deposited data

How the results depend on the processing

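The log2 fold change of Ifi202b stayed positive in the main fit and all 16 alternatives. The sign of 3 other members turned: Ifi203 to -0.10 with effective-length offsets, Ifi207 to -0.06 with a Y-linked term, and Ifi205 to 1.62 with a Y-linked term, 0.36 without WT replicate 2 and 0.09 with limma-voom. The retained-intron transcript of Ifi204 had -0.62. The cause was not tested. With few counts in these genes, depth limits what can be resolved, above all for Ifi205. The family sum of 1.36 was 1.10 with the other PYHIN genes and 0.19 without Ifi202b, and leaving out 1 library gave 1.15 to 1.48.

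Counts of called genes depended on the tool. Against 59 higher and 14 lower, no filter gave 90 and 28, DESeq2 212 and 87, and the likelihood ratio test 185 and 75. Lower calls numbered 7 at a minimum count of 50, 4 with limma-voom and 4 with effective-length offsets. Leaving out 1 library gave 9 to 136 higher, with 9 without WT replicate 3 and 136 without WT replicate 1, and 1 to 70 lower. Of interferon-stimulated genes 0 were called, 1 with no filter, 2 with DESeq2, 1 with the likelihood ratio test, and 0 to 1 with a library left out. That range was 0 to 1 for the p202 and p204 partners, 0 to 2 for the strain list (main 1), 0 to 1 for the chromosome 1 flank and 0 to 4 for the chromosome 4 flank (main 1). DESeq2 called 2 in the chromosome 1 flank. In the chromosome 4 flank no filter and 10 Mb gave 2 each, DESeq2 and the likelihood ratio test 10 each, and a minimum count of 50, limma-voom, the Y-linked term and effective-length offsets 0 each.

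Deviations of libraries with the same replicate number correlated at -0.244, -0.092 and -0.162. No WT library correlated best with the KO library of its number, so no pairing by number was seen. With 3 libraries per genotype, this cannot exclude that libraries of the same number share an origin. With the replicate block, 42 genes were higher and 5 lower, Ifi202b had 3.09 and the family sum 1.33, and the strain list and the chromosome 4 flank had 0 called each.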
